A study of Mus musculus with 36 samples.

Results

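Ionomycin was compared with vehicle in natural killer (NK) cells of the mouse spleen, using 6 of the 36 RNA-seq libraries of a study of functional and desensitized NK cells. The 3 ionomycin and 3 vehicle libraries were taken by their labels. The comparison itself and the gene lists were chosen with earlier results of these data known. All came from wild-type C57BL/6 mice (B2m+/+), one biological replicate per library. Splenocytes were kept as a mixed culture for 22 h with vehicle or with ionomycin, and NK cells were purified afterwards by fluorescence-activated sorting, so that other spleen cells were exposed beside them. The labels give no dose, age or sex, and all 6 libraries carry the same batch date. Values are TPM, a unit in which reads are corrected for the length of the gene and every library is scaled to a sum of 1000000.

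Ionomycin is an ionophore that carries calcium ions across membranes, so that cytosolic calcium rises without engagement of any surface receptor. Calcium-bound calmodulin activates the phosphatase calcineurin, which lets NFAT transcription factors enter the nucleus. In T cells, NFAT acting without its AP-1 partners is known to drive genes of anergy, a state of lasting hyporesponsiveness, and NR4A nuclear receptors are known to accompany anergy and exhaustion. NK cells that receive persistent activating signals can likewise become hyporesponsive. The comparison shows how NK cells taken from an ionomycin-treated spleen culture differ from those of a vehicle-treated one.

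The 6 libraries were NK cell libraries by their markers. The summed level of 11 NK cell markers was 17865, 19041 and 11802 TPM with vehicle and 10438, 9124 and 8130 TPM with ionomycin, and 2 of the 11, Gzma and Ncr1, were called, both lower. Cd4, Cd8a, Cd8b1, Ms4a1 and Pax5 were listed at 0 in every library. The T cell list, 10 of whose 12 symbols were in the table, summed to 140.5 to 260.6 TPM, nearly all of it Trbc2. The B cell list summed to 62.4 to 201.9 TPM, most of it Ighm, and the monocyte or macrophage list to 35.5 to 78.0 TPM with 4 of 11 markers at 0 throughout. Neutrophil markers were uneven: their sum was 377.1 TPM in vehicle replicate 3 and 121.2 TPM in ionomycin replicate 3, against 0 to 2.2 TPM in the other 4 libraries, and Ly6g, Mpo and Elane were at 0 in all 6. One library of each group thus carried these markers, and none of the list was called. An erythroid list summed to 101.9 to 121.9 TPM with vehicle and 201.1 to 215.5 TPM with ionomycin, nearly all of it Car2, with Hbb-bt at 0. The lists for plasma cells (0 to 12.9 TPM), dendritic cells (56.1 to 93.1), type 1 innate lymphoid cells (42.5 to 106.9), platelets (9.0 to 32.2) and mast cells or basophils (0.1 to 6.9) were low in both groups. In bulk samples, fewer cells of a type and less RNA per cell cannot be told apart.

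The vehicle libraries differed from one another more than the ionomycin libraries did. Pearson correlations of log2(TPM + 1) across the 14372 genes tested were 0.8045 to 0.8627 among vehicle libraries, 0.8874 to 0.8986 among ionomycin libraries and 0.8147 to 0.8446 between groups (genes are not independent replicates). The first principal component held 31.0% of the variance and separated the groups. The second held 26.9% and mainly spread the vehicle libraries, with scores of 66.1, -2.20 and -113. The SD of log2 values over the 3 replicates exceeded 1 for 26.8% of genes with vehicle and 15.0% with ionomycin. Ifng, the gene of the main NK cytokine interferon-gamma, was at 27589, 2522 and 82.4 TPM in vehicle replicates 1, 2 and 3. The standard error of its log2 change was 1.67.

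**Figure D1:**
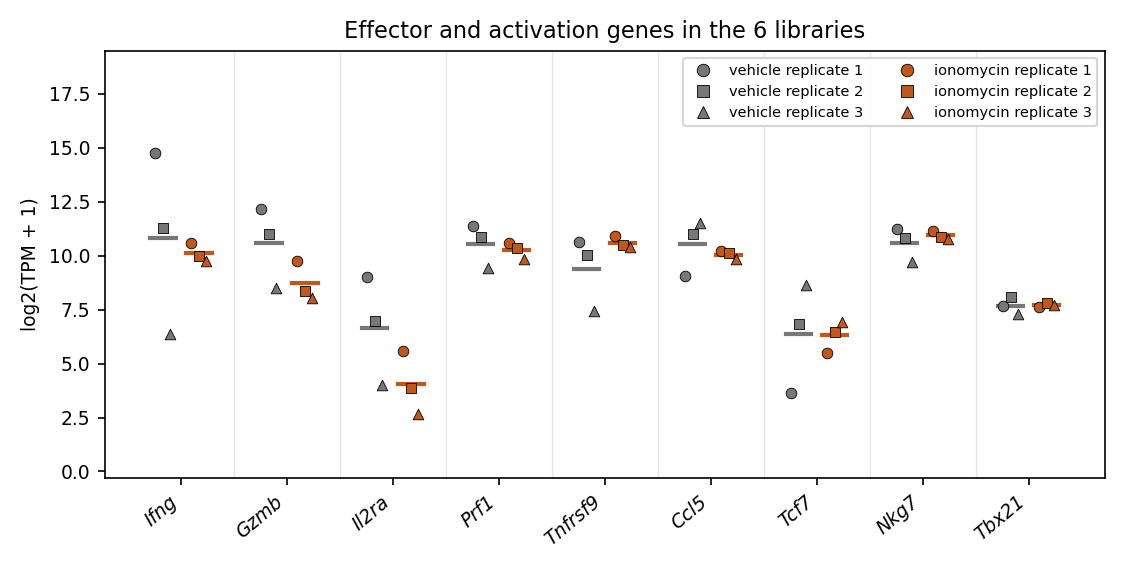
Level of 9 effector and activation genes in each library, on the log2(TPM + 1) scale; grey symbols are vehicle libraries, orange symbols ionomycin libraries, and each horizontal bar is the mean of 3. Ifng, Gzmb, Il2ra and Tcf7 differ widely among the vehicle libraries, while Tbx21 lies between 155 and 269 TPM in all 6 libraries.

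A small share of the genes tested was called between ionomycin and vehicle, and a gene that was not called is not shown to be unchanged. Limma called 418 of 14372 genes (2.91%) at an adjusted p under 0.05, 238 higher (1.66%) and 180 lower (1.25%) with ionomycin, and 2169 genes had an unadjusted p under 0.05. In all 418 the 3 ionomycin values lay outside the range of the 3 vehicle values, which held for 20.1% of all genes tested. The median log2 change over all genes tested was -0.004. The 28 gene lists described below were chosen with earlier results of these data known. Of their 809 tested entries, 93 were called (11.5%). A share above 2.91% in 1 list is therefore not by itself a trait of that list. Removing 1 library reduced the count to 299, 24 and 342 without vehicle replicates 1, 2 and 3. Without ionomycin replicates 1, 2 and 3 it was 6, 3 and 5. The direction of the 418 genes could not change in these 6 fits, because their groups did not overlap. With all libraries, 185 genes were called without the filter on low values and 172 without a variance trend, and 60 and 84 of the called genes ranked or listed here were then not called. The genes called in every one of the 6 fits were Nr4a3, Serpine2 and the pseudogene Gvin-ps4. The called entries Rnu2-10, Gm23849, Gm23971 and Gm24950 are copies of the U2 small nuclear RNA that hold identical values and count as 1 measurement.

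The 10 largest rises, chosen by a rule on called, non-overlapping genes with a full symbol, were mostly genes that were nearly silent with vehicle. Kif15 (ENSMUSG00000036768), a mitotic kinesin motor, was at 2.93, 0.16 and 0 TPM with vehicle and 334, 461 and 468 TPM with ionomycin. Slc9b2, a sodium/proton exchanger, and Abcb4, a phospholipid transporter, were listed at 0 in all 3 vehicle libraries and lay at 125 to 225 TPM and 36.3 to 45.0 TPM with ionomycin. Both were therefore seen only with ionomycin in these 6 libraries, and no fold is given for them. Serpine2 (ENSMUSG00000026249), a secreted inhibitor of serine proteases, was at 13.4, 8.91 and 9.70 TPM with vehicle and 620, 430 and 549 TPM with ionomycin, and its log2 change was 5.52 ± 0.26 (SE; limma adjusted p = 7.21e-05). Synpo, an actin-associated protein gene, was at 1.50 to 1.90 TPM with vehicle and 108 to 124 TPM with ionomycin. Susd1 was at 3.24, 24.1 and 0.91 TPM with vehicle and 258, 197 and 244 TPM with ionomycin, so the groups were far apart although the vehicle values were uneven. Nr4a2, Spry1, Tnip3 and Tnfsf8, also among the 10, are described with their families.

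The 10 largest falls were chosen by the same rule. Ptpre, a receptor-type tyrosine phosphatase, was at 118, 84.6 and 52.6 TPM with vehicle and 4.60, 4.37 and 3.85 TPM with ionomycin, a log2 change of -3.96 ± 0.39 (limma adjusted p = 0.00293). Apol7e, of the apolipoprotein L family, was at 180, 296 and 592 TPM with vehicle and 18.0, 21.9 and 23.2 TPM with ionomycin. F2rl2, a protease-activated receptor gene, was at 117, 98.9 and 29.1 TPM with vehicle and 10.3, 0.99 and 0.67 TPM with ionomycin. S100a4, a calcium-binding protein of motile cells, was at 10.4 to 26.9 TPM with vehicle and 0, 0 and 1.62 TPM with ionomycin. In each of these 4 genes the vehicle libraries also differed among themselves, but every one of them lay above every ionomycin library. Ly6c2, Sema6d, Klrg1, Ubash3a, Grap2 and Mxd1, the other 6 of the 10, are described with their lists. By difference in mean level rather than by fold, the largest changes included falls of Gzma, Actb, AW112010, Tmsb10 and Btg1 and rises of Rgs1, Stat3, Rpsa and Rpl17. Rgs1, a regulator that shortens G protein signalling, was at 388, 397 and 263 TPM with vehicle and 2141, 1975 and 1885 TPM with ionomycin. Btg1, an antiproliferative gene of resting lymphocytes, was at 2638, 2293 and 938 TPM with vehicle and 521, 565 and 481 TPM with ionomycin. The noncoding AW112010 was at 5931, 4045 and 2400 TPM with vehicle and 1725, 955 and 1007 TPM with ionomycin. Of the 30 genes ranked in these ways, 14, 9 and 22 were still called without vehicle replicates 1, 2 and 3, and 2, 1 and 2 without ionomycin replicates 1, 2 and 3.

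The NR4A genes encode orphan nuclear receptors that are switched on within the first hours of calcium signalling, and the EGR genes encode zinc finger factors of the same immediate-early kind, restrained by the corepressors NAB1 and NAB2. The sequences that lie just upstream of the 3 NR4A genes are shown because Nr4a2 and Nr4a3 were among the largest rises. They come from RefSeq on GRCm38.p6, while the expression values were made on GRCm39; each covers the 250 bases before the RefSeq start, cut at the first base of an annotated GENCODE exon for Nr4a3. Capitals mark matches, on either strand, to TGACG, the half-site of the cyclic AMP response element bound by CREB and ATF factors. They also mark the core letters bound by NFAT factors, which are GGAAA, searched on both strands as well.
Nr4a3, chr4:48045055-48045152, plus strand: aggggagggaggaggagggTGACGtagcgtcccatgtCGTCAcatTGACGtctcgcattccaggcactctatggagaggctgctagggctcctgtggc
Nr4a2, chr2:57124004-57124253, minus strand: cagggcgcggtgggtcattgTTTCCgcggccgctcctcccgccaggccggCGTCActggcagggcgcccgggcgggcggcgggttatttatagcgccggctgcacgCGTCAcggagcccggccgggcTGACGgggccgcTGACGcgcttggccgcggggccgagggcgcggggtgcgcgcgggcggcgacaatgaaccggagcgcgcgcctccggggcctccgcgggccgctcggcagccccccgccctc
Nr4a1, chr15:101266596-101266845, plus strand: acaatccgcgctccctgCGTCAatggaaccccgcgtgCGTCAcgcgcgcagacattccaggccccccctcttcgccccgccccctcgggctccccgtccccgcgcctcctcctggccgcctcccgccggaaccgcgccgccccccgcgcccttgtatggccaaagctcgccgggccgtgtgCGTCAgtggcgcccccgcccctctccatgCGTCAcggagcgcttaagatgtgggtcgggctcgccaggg
Over the full 250 bases, each of the 3 held TGACG 4 times on the 2 strands together. Of 32851 RefSeq promoters cut to the same length, 17.8% held it at least 1 time and 0.137% (45) at least 4 times. GGAAA was found 1 time upstream of Nr4a2 and not in the windows of the other 2 genes, against 55.6% of all promoters with at least 1 copy. The TGACG motif was picked after these 3 sequences had been read, and a match is a description of the letters, not a bound site.

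Nr4a2 and Nr4a3 had the largest log2 changes of any called transcription factor gene on the lists. Nr4a3 (ENSMUSG00000028341) was at 13.3, 13.9 and 17.8 TPM with vehicle and 473, 621 and 584 TPM with ionomycin, and its log2 change was 5.13 ± 0.23 (limma adjusted p = 7.21e-05), between 5.05 and 5.25 with any 1 library left out. Nr4a2 was at 3.21, 29.8 and 39.7 TPM with vehicle and 1139, 1618 and 1287 TPM with ionomycin, and its change of 6.26 ranged from 5.24 to 6.87 over the same fits, called only without vehicle replicates 1 and 3. Nr4a1, the third receptor of the family, was at 9.40, 27.5 and 78.5 TPM with vehicle and 128, 177 and 147 TPM with ionomycin; its values did not overlap, but the vehicle spread left it uncalled (log2 change 2.39, limma adjusted p = 0.0915). Within the EGR branch the directions differed. Egr1 was at 134, 122 and 202 TPM with vehicle and fell to 61.6, 45.1 and 59.0 TPM with ionomycin, while its corepressor Nab2 rose from 19.0, 42.1 and 23.2 TPM to 98.5, 107 and 100 TPM. Egr2, linked to T cell anergy, was at 4.52, 7.51 and 20.8 TPM with vehicle and 31.4, 35.5 and 35.8 TPM with ionomycin (log2 change 1.80, limma adjusted p = 0.126). Egr3 was at 3.98 to 11.4 TPM with vehicle and 0 to 3.64 TPM with ionomycin, and Nab1 at 80.3 to 120 TPM and 64.4 to 78.5 TPM; neither was called, and Egr4 was listed at 0 throughout. In all, 3 of the 8 tested NR4A and EGR genes were called higher and 1 lower (50%, against 2.91% of all genes tested). Their median log2 change was 1.85.

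**Figure D2:**
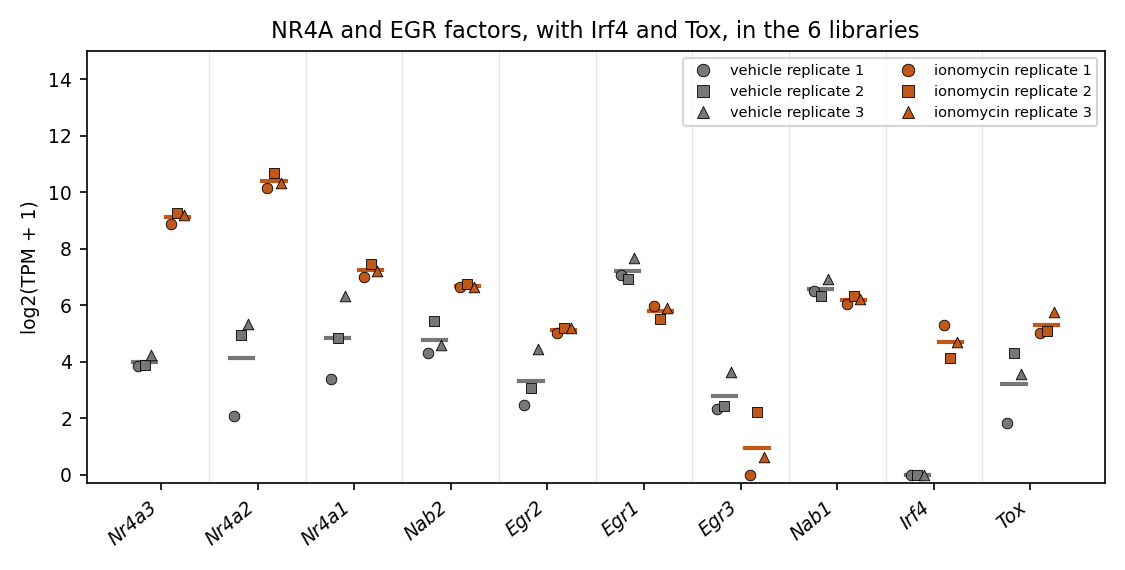
Level of the 8 tested NR4A and EGR family genes, and of Irf4 and Tox, in each library on the log2(TPM + 1) scale, with symbols by replicate and bars at group means. Nr4a3 lies at 13.3 to 17.8 TPM in the grey vehicle libraries and 473 to 621 TPM in the orange ionomycin libraries, and Irf4 is listed at 0 in all 3 vehicle libraries.

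Of 45 tested genes of calcineurin, NFAT and calcium handling, 1 was called higher and 2 lower (6.67%, against 2.91% of all genes tested), with a median log2 change of -0.19. Mcu, the pore of the mitochondrial calcium uniporter, rose from 43.0, 41.7 and 26.1 TPM to 77.8, 101 and 99.6 TPM. Sting1, a sensor adaptor of the endoplasmic reticulum, fell from 203, 200 and 132 TPM to 64.8, 38.6 and 72.1 TPM, and Capn2, a calcium-activated protease, from 224, 153 and 127 TPM to 75.1, 59.1 and 59.9 TPM. Nfatc1, the NFAT gene that is itself an NFAT target, was at 80.0, 172 and 219 TPM with vehicle and 380, 484 and 436 TPM with ionomycin, without overlap but just short of the threshold (log2 change 1.57, limma adjusted p = 0.0537). Calm2, a calmodulin gene, and the calpain inhibitor gene Cast were among the most abundant uncalled members.

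The AP-1 and MAP kinase lists each held 1 call (5% and 5.26%, against 2.91% of all genes tested). Fosl2, a Fos-family partner of Jun proteins, was at 210, 193 and 163 TPM with vehicle and 728, 812 and 643 TPM with ionomycin, a log2 change of 1.94 ± 0.20 (limma adjusted p = 0.00294), and it was the only call among 20 AP-1, ATF and MAF genes. Junb (301 to 458 TPM with vehicle, 200 to 250 TPM with ionomycin), Jund and Atf4 were not called. Fos rose without overlap, from 9.24, 31.15 and 26.89 TPM to 54.36, 74.63 and 48.04 TPM, and was not called (log2 change 1.49, limma adjusted p = 0.149). Of the 20 genes, 4 did not overlap with ionomycin higher and 5 with ionomycin lower, against 10.5% and 9.57% of all genes tested. Spry1, a feedback inhibitor of receptor-to-MAP kinase signalling, was listed at 0 in all vehicle libraries and at 137, 72.2 and 84.1 TPM with ionomycin, the only call among 19 MAP kinase feedback genes. Spry2 (119 to 231 TPM, then 314 to 371 TPM) and the phosphatase gene Dusp2 (95.9 to 427 TPM, then 585 to 825 TPM) were higher in every ionomycin library without being called. Of the 9 calls on the NR4A, calcium, AP-1 and MAP kinase lists, 4, 2 and 4 remained without vehicle replicates 1, 2 and 3, and 1, Nr4a3, without each ionomycin replicate.

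Several genes that restrain antigen and NK receptor signalling rose. Of 36 genes on an anergy and hyporesponsiveness list, 9 were called higher and 2 lower (30.6%, against 2.91% of all genes tested). The list's median log2 change was only 0.11. Cblb, an E3 ubiquitin ligase that limits NK and T cell activation, was at 75.7, 148 and 193 TPM with vehicle and 402, 381 and 354 TPM with ionomycin. Ndfip1, an adaptor for the ITCH-type ligases, rose from 204, 153 and 183 TPM to 566, 554 and 514 TPM, a log2 change of 1.60 ± 0.19 (limma adjusted p = 0.00539). In both genes the ionomycin libraries were close together and all above the vehicle libraries. Ptpn22, a phosphatase that dephosphorylates Src and Syk family kinases, was at 316, 482 and 616 TPM with vehicle and 1609, 1704 and 1396 TPM with ionomycin. Sh2d2a, the gene of the adaptor TSAd, was at 321, 326 and 440 TPM with vehicle and 971, 1102 and 1081 TPM with ionomycin. Tnip3, a partner of the NF-kappaB inhibitor A20, was listed at 0 in every vehicle library and at 90.7, 28.6 and 43.5 TPM with ionomycin.

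The 2 Ubash3 genes, which both encode suppressors of receptor signalling, moved in opposite directions. Ubash3b (Sts-1) was at 14.8, 26.2 and 37.2 TPM with vehicle and 224, 256 and 297 TPM with ionomycin, with a log2 change of 3.35 ± 0.34 (limma adjusted p = 0.00294). Ubash3a (Sts-2) was at 38.7, 14.2 and 65.2 TPM with vehicle and 1.84, 0 and 2.01 TPM with ionomycin, with a log2 change of -4.06 ± 0.71 (limma adjusted p = 0.0215). Dok2, an adaptor that dampens tyrosine kinase signals, also fell, from 286, 240 and 232 TPM to 131, 73.4 and 77.9 TPM. The Ikaros family factors rose: Ikzf1 from 304 to 359 TPM up to 646 to 712 TPM, Ikzf3 from 213 to 453 TPM up to 805 to 926 TPM, and Ikzf2 (Helios) from 7.71 to 12.7 TPM up to 36.5 to 72.1 TPM. Among 14 tested exhaustion-linked transcription factors only Irf4 was called (7.14%, against 2.91% of all genes tested). Irf4 was at 0 TPM with vehicle and 38.3, 16.6 and 25.1 TPM with ionomycin. Tox, a factor of T cell exhaustion, was at 2.54, 18.7 and 10.8 TPM and 31.8, 32.7 and 52.9 TPM (log2 change 2.06, limma adjusted p = 0.139), and Eomes at 160, 322 and 431 TPM and 587, 801 and 710 TPM (limma adjusted p = 0.0959); neither was called although their groups did not overlap. Dgkz, Csk, Ndrg1, Bhlhe40 and Nfil3 were the other abundant members that were not called. Batf, also on the exhaustion list, fell without overlap, from 78.4, 28.9 and 20.8 TPM to 5.53, 14.3 and 4.64 TPM. It was not called either (log2 change -2.17, limma adjusted p = 0.108). Of the 12 calls on these lists, 9, 0 and 7 remained without vehicle replicates 1, 2 and 3, and 0 without any 1 ionomycin replicate.

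Of the receptor genes, 4 inhibitory ones known from exhausted lymphocytes rose and 5 activating receptor and adaptor genes fell. Of 31 tested inhibitory and checkpoint receptors, 4 were called higher and 2 lower (19.4%, against 2.91% of all genes tested). Cd160 was at 0, 7.96 and 7.88 TPM with vehicle and 137, 119 and 214 TPM with ionomycin. Lag3 (ENSMUSG00000030124) was at 38.4, 23.3 and 5.31 TPM with vehicle and 556, 292 and 310 TPM with ionomycin, a log2 change of 4.35 ± 0.61 (limma adjusted p = 0.0099). Tigit, the inhibitory counterpart of DNAM-1, was at 79.6, 88.8 and 277 TPM with vehicle and 1156, 1178 and 1275 TPM with ionomycin. Tigit was even across the ionomycin libraries and uneven across the vehicle libraries, where replicate 3 was highest. Vsir (VISTA) rose from 104, 117 and 155 TPM to 488, 424 and 503 TPM, a log2 change of 1.92 ± 0.22 (limma adjusted p = 0.0045). Havcr2 (TIM-3) was at 26.2, 2.50 and 0 TPM with vehicle and 112, 82.2 and 70.1 TPM with ionomycin, without overlap and uncalled (log2 change 4.26, limma adjusted p = 0.0657). Pdcd1 (PD-1) was at 0 to 1.47 TPM with vehicle and 1.68 to 6.37 TPM with ionomycin.

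Klrg1 and Cd244a were the falls on this list. Klrg1, a marker of terminal maturation, was at 334, 149 and 38.9 TPM with vehicle and 5.40, 9.42 and 3.51 TPM with ionomycin. Cd244a (2B4), a SLAM family receptor that can activate or inhibit, was at 234, 274 and 172 TPM with vehicle and 41.1, 50.4 and 31.0 TPM with ionomycin. The list therefore did not move as a whole, and its median log2 change was -0.17. Klrd1 (CD94) and Klrb1b were the abundant uncalled members, with Klrd1 at 562 to 1202 TPM with vehicle and 779 to 859 TPM with ionomycin.

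**Figure D3:**
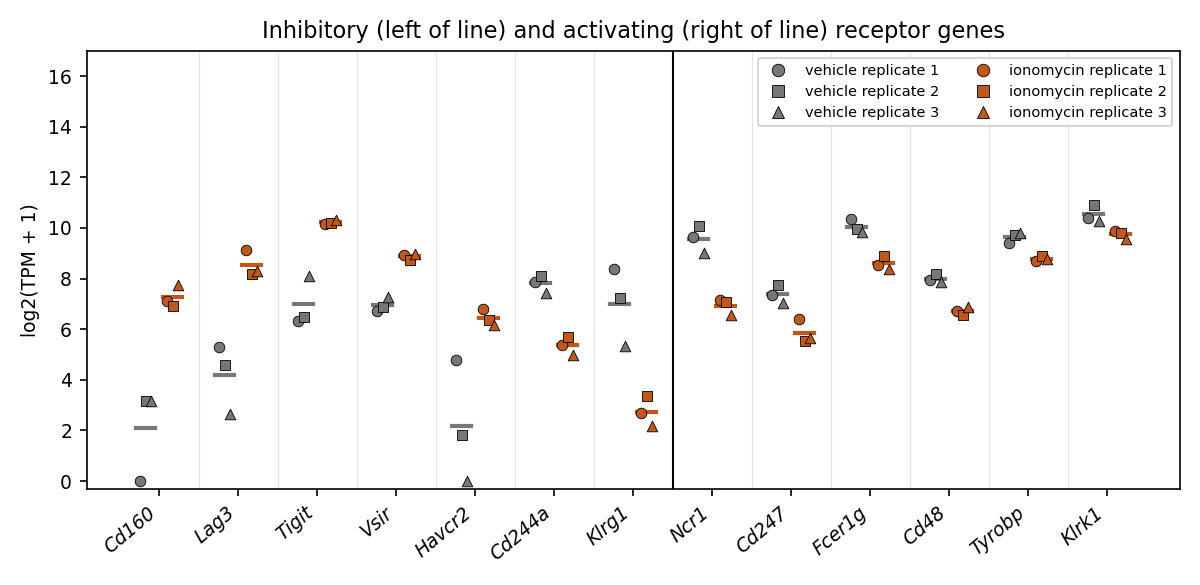
Level of 7 inhibitory receptor genes (left of the black line) and 6 activating receptor or adaptor genes (right) in each library on the log2(TPM + 1) scale, with symbols by replicate and bars at group means. Cd160, Lag3, Tigit and Vsir lie higher in all 3 ionomycin libraries, and Ncr1 lies at 94.0 to 141 TPM with ionomycin against 512 to 1073 TPM with vehicle; Havcr2 and Klrk1 were not called.

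Of 24 tested activating receptors and adaptors, 5 were called lower and 0 higher (20.8%, against 2.91% of all genes tested). A log2 change below 0 was seen in 21 of the 24, and the median was -0.83. Ncr1 (NKp46, ENSMUSG00000062524), an activating receptor that defines the NK lineage, was at 800, 1073 and 512 TPM with vehicle and 141, 135 and 94.0 TPM with ionomycin, a log2 change of -2.64 ± 0.30 (limma adjusted p = 0.0045). The adaptors that pass on its signal fell too. Fcer1g was at 1293, 1006 and 925 TPM with vehicle and 372, 476 and 336 TPM with ionomycin, and Cd247 (CD3-zeta) at 163, 213 and 130 TPM and 83.7, 45.2 and 49.9 TPM. Tyrobp (DAP12) went from 686, 846 and 902 TPM to 414, 470 and 433 TPM. Cd48, the ligand of 2B4, went from 243, 287 and 230 TPM to 105, 92.3 and 117 TPM. Klrk1 (NKG2D) was at 1344, 1945 and 1241 TPM with vehicle and 949, 893 and 750 TPM with ionomycin and was not called (limma adjusted p = 0.12). Ly49 genes of the list, whose copies are alike enough to share reads, lay within the vehicle range, with Klra8 at 299 to 1097 TPM and 456 to 609 TPM and Klra4 at 344 to 814 TPM and 489 to 623 TPM. Of the 11 calls among both kinds of receptor, 8, 0 and 8 remained without vehicle replicates 1, 2 and 3, and 0 without any 1 ionomycin replicate.

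Downstream of these receptors, 9 of 39 proximal signalling genes were called lower and 2 higher (28.2%, against 2.91% of all genes tested). Syk, the tyrosine kinase recruited by ITAM adaptors in NK cells, was at 102, 102 and 125 TPM with vehicle and 39.6, 35.5 and 33.8 TPM with ionomycin, a log2 change of -1.57 ± 0.24 (limma adjusted p = 0.0128). Its relative Zap70 moved the other way, from 154, 227 and 212 TPM to 718, 714 and 847 TPM, a change of 1.95 ± 0.21 (limma adjusted p = 0.00367). The 2 kinases of the family thus changed in opposite directions, both without overlap between groups. Plcg2, the phospholipase that generates the calcium signal in NK cells, fell from 97.7, 110 and 60.8 TPM to 27.8, 25.4 and 22.8 TPM, and Vav1, an exchange factor for Rac, from 137, 176 and 162 TPM to 62.6, 73.7 and 73.0 TPM. Pik3r1, the regulatory subunit p85-alpha of PI3 kinase, rose from 146, 338 and 590 TPM to 1504, 1631 and 1526 TPM. The adaptor genes Grap2, Lat2 and Pik3ap1 fell; Grap2 (GADS), for instance, from 38.8, 52.6 and 79.3 TPM to 7.83, 1.00 and 4.88 TPM. Dock8 (148 to 203 TPM, then 59.6 to 88.2 TPM), Rac2 and Coro1a, which link receptors to the actin skeleton, completed the 9 falls. The Src kinase genes Fyn and Lck, with log2 changes of 0.26 each, and Wipf1 (limma adjusted p = 0.0503) were not called. The list's median log2 change was -0.26. Of its 11 calls, 5, 0 and 7 remained without vehicle replicates 1, 2 and 3, and 0 without any 1 ionomycin replicate.

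Genes of the actin skeleton and of motility were called in 1 direction. Of 37 tested, 9 were called lower and 0 higher (24.3%, against 2.91% of all genes tested). A log2 change below 0 was seen in 32, and the median was -0.61. Vim, the intermediate filament vimentin, was at 1138, 639 and 441 TPM with vehicle and 130, 42.2 and 54.1 TPM with ionomycin, a log2 change of -3.34 ± 0.46 (limma adjusted p = 0.00972). Coro1a, an actin regulator needed for NK granule release, was at 1031, 803 and 616 TPM and 283, 201 and 148 TPM, and the filament crosslinker Flna at 638, 475 and 366 TPM and 184, 148 and 120 TPM. Actb, beta-actin, was at 6722, 5411 and 3952 TPM with vehicle and 2250, 1722 and 1797 TPM with ionomycin, so that a gene commonly used as a reference was 1 of the largest falls by level. Lsp1, Arhgdib, Tmsb10, Rac2 and Vasp were the other calls, with log2 changes of -1.57, -1.36, -1.20, -1.10 and -0.94. Tmsb4x, Actg1 and Pfn1 were not called; Actg1, at 2197 to 4074 TPM with vehicle and 1221 to 1840 TPM with ionomycin, and Pfn1, at 1626 to 2909 TPM and 1106 to 1304 TPM, did not overlap. Of the 9 calls, 0 remained without a variance trend, 3 without the filter on low values, 6 with median-of-ratios rescaling and 8 with quantile normalization. Of the same 9, 0, 0 and 7 remained without vehicle replicates 1, 2 and 3, and 0 without any 1 ionomycin replicate.

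**Figure D4:**
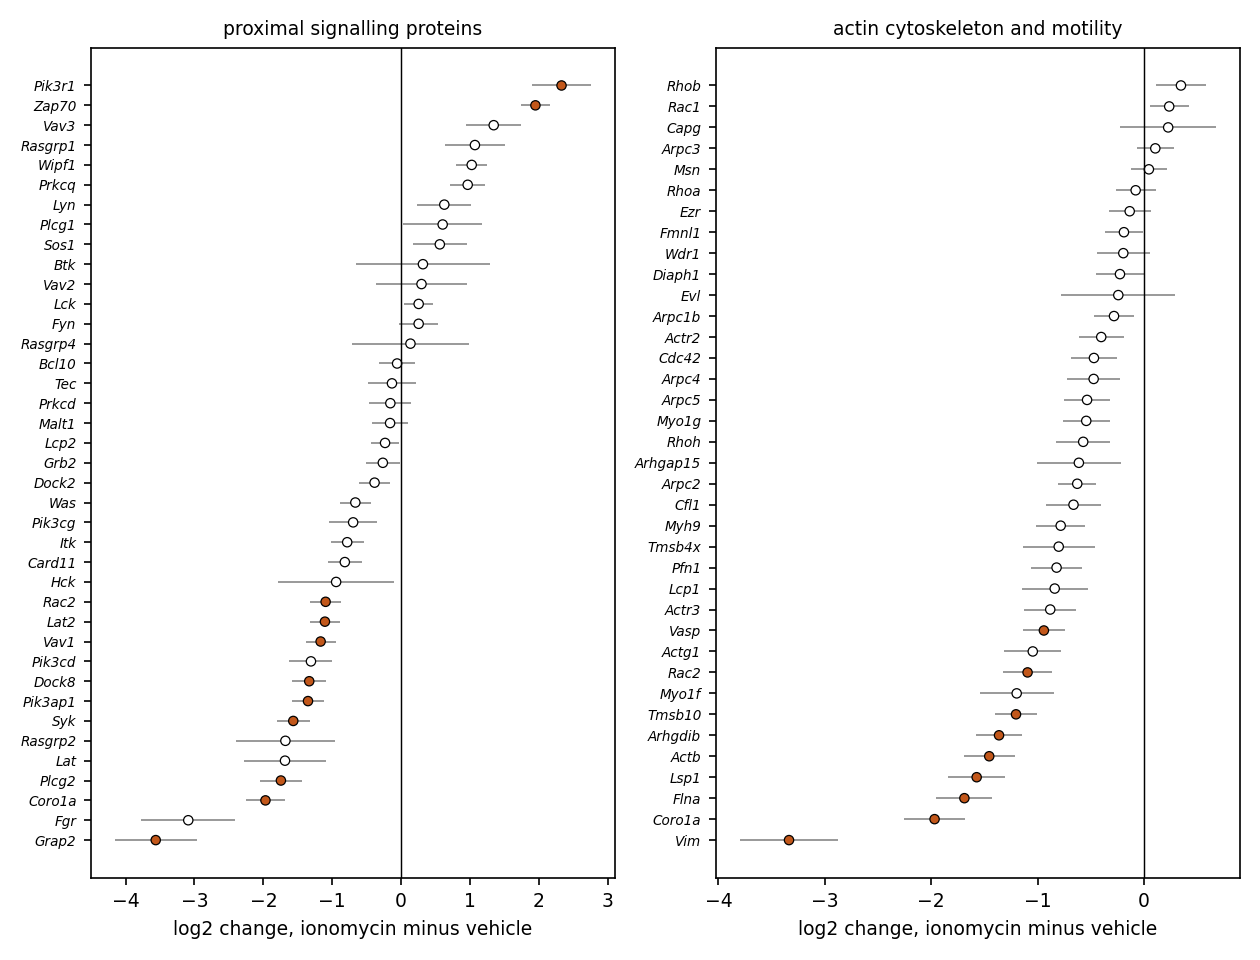
Log2 change (ionomycin minus vehicle) with its standard error for each of 39 proximal signalling genes (left) and 37 actin genes (right); filled points were called by limma and open points were not. Pik3r1 and Zap70 are the 2 filled points above 0 on the left, and all 9 filled points on the right lie below 0.

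Among cytotoxic and cytokine genes, Ifng and Gzmb had some of the widest vehicle spreads. Gzma, the most abundant granzyme gene, fell from 6271, 5833 and 3222 TPM to 1344, 867 and 1017 TPM, a log2 change of -2.21 ± 0.29 (limma adjusted p = 0.00767). Ctsw, a cathepsin of cytotoxic cells, fell from 200, 556 and 506 TPM to 43.3, 42.8 and 75.0 TPM, and Srgn, the proteoglycan that packs the granules, rose from 955, 547 and 516 TPM to 2067, 1979 and 1626 TPM. These 3 were the calls among 24 granule genes (12.5%, against 2.91% of all genes tested). Gzmb was at 4665, 2065 and 362 TPM with vehicle and 857, 333 and 265 TPM with ionomycin (log2 change -1.84, limma adjusted p = 0.352). Prf1, the pore former perforin, was at 2623, 1896 and 689 TPM with vehicle and 1544, 1299 and 931 TPM with ionomycin, and Nkg7 at 2391, 1803 and 835 TPM and 2248, 1891 and 1772 TPM. For both, the ionomycin values lay inside the vehicle range.

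Among 23 tested cytokine and chemokine genes Tnfsf8 (CD30 ligand) was the only call (4.35%), at 0.99, 0 and 0.61 TPM with vehicle and 61.5, 53.1 and 66.9 TPM with ionomycin. Ifng with ionomycin was at 1556, 1002 and 852 TPM, inside the vehicle range (log2 change -0.71 ± 1.67); without vehicle replicate 1 the change was 1.26, so its direction rested on that library. Ccl5 was at 529, 2071 and 2962 TPM with vehicle and 1180, 1108 and 919 TPM with ionomycin, and Xcl1 at 409, 1226 and 210 TPM and 449, 647 and 771 TPM. Neither chemokine was separated between the groups, and without vehicle replicate 3 both changes turned, to 0.02 and -0.22. Il2, Il3, Il4 and Il13 were listed at 0 in all 6 libraries. Of 14 tested costimulatory receptors, 1 was called higher and 1 lower (14.3%, against 2.91% of all genes tested). Cd27 rose from 38.0, 106 and 123 TPM to 367, 293 and 365 TPM. Tnfrsf18 (GITR) fell from 165, 143 and 94.4 TPM to 58.4, 40.1 and 22.3 TPM. Tnfrsf9 (4-1BB), an activation marker, was at 1613, 1059 and 171 TPM and 1925, 1457 and 1351 TPM and was not called. Of the 6 calls on the granule, cytokine and costimulation lists, 4, 1 and 2 remained without vehicle replicates 1, 2 and 3, and 0 without any 1 ionomycin replicate.

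Of 22 tested cytokine receptor genes, 3 were called lower and 0 higher (13.6%, against 2.91% of all genes tested). The median log2 change was -0.63. Il27ra was at 49.0, 58.5 and 44.0 TPM with vehicle and 15.7, 11.1 and 11.3 TPM with ionomycin. Il4ra went from 74.5, 92.0 and 137 TPM to 21.2, 32.7 and 32.3 TPM, and Tgfbr2, through which TGF-beta restrains NK cells, from 75.1, 108 and 137 TPM to 35.9, 38.9 and 43.5 TPM. Il2rb, the shared beta chain of the interleukin-2 and interleukin-15 receptors, was at 3049, 3803 and 2490 TPM and 1974, 1714 and 1438 TPM, without overlap and uncalled (limma adjusted p = 0.0884). Il2ra, induced on activated cells, was at 510, 124 and 15.3 TPM and 47.1, 13.6 and 5.32 TPM (limma adjusted p = 0.341). Downstream, Stat3 rose from 844, 1075 and 967 TPM to 2339, 2788 and 2631 TPM, a log2 change of 1.43 ± 0.18 (limma adjusted p = 0.00688), while the kinase gene Pim2, a target of STAT5, fell from 403, 832 and 375 TPM to 209, 168 and 98.4 TPM. They were the 2 calls among 22 JAK, STAT and SOCS genes (9.09%, against 2.91% of all genes tested). Jak1, Pim1 and Stat4 were the abundant uncalled members. Of the 5 calls on both lists, 2, 0 and 2 remained without vehicle replicates 1, 2 and 3, and 0 without any 1 ionomycin replicate.

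Of 36 lineage and maturation transcription factors, 4 were called, against 2.91% of all genes tested: the 3 Ikaros genes described with the anergy list rose, and Runx3 fell, from 335, 444 and 314 TPM to 115, 77.7 and 83.7 TPM, a log2 change of -1.98 ± 0.24 (limma adjusted p = 0.00572). Tbx21 (T-bet), which drives terminal maturation, was at 200, 269 and 155 TPM with vehicle and 194, 225 and 209 TPM with ionomycin, and Id2, Irf8 and Ets1 were likewise uncalled with overlapping groups. Of 42 tested surface genes of maturation and homing, 2 were called higher and 6 lower (19%), with a median of -0.55. Ly6c2, carried by mature cells and so similar to Ly6c1 that the pair may share reads, was at 26.4, 159 and 168 TPM with vehicle and 0.81, 0 and 10.4 TPM with ionomycin, and Itga2 (CD49b) at 47.2, 139 and 85.3 TPM and 27.4, 15.0 and 18.3 TPM. Itgb2, the CD18 chain shared by CD11b and LFA-1, fell from 754, 663 and 448 TPM to 302, 267 and 259 TPM. Itga4 (CD49d) and Cd27, which marks less mature NK cells, were the rises; Itga4 went from 112, 203 and 242 TPM to 449, 572 and 482 TPM. The semaphorins Sema6d (228, 94.7 and 19.6 TPM, then 3.75, 0.60 and 1.03 TPM) and Sema4a (187, 286 and 261 TPM, then 38.7, 46.7 and 12.2 TPM) fell, as did Ly6e. Thy1 and Selplg were not called, and Thy1 was uneven in both groups, at 32.0 to 1974 TPM and 171 to 1496 TPM; its log2 change of 0.60 ran from -0.96 to 1.99 with 1 library left out. Of the 12 calls on the 2 lists, 5, 0 and 4 remained without vehicle replicates 1, 2 and 3, and 0 without any 1 ionomycin replicate.

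Interferon-stimulated genes were called only as lower with ionomycin. Of 66 tested, 7 were called lower and 0 higher (10.6%, against 2.91% of all genes tested). A log2 change below 0 was seen in 56, and the median was -0.74. The very large interferon-inducible GTPase genes Gvin1 and Gvin2 were at 388, 948 and 526 TPM and 576, 1531 and 1121 TPM with vehicle, and at 151, 54.0 and 63.5 TPM and 222, 165 and 200 TPM with ionomycin. Gvin genes are near-identical copies of each other, so reads may be divided among them. Gbp4 and Gbp7, guanylate-binding proteins, fell from 134 to 200 TPM to 45.8 to 56.4 TPM and from 86.6 to 101 TPM to 29.1 to 39.8 TPM. Zbp1, a sensor of left-handed nucleic acid, fell from 175, 130 and 112 TPM to 43.2, 11.3 and 26.7 TPM; Ly6e and Slfn8 were the other 2 calls. Sp100, Samd9l and Ifi209 were abundant members that were not called.

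None of 24 MHC class I and peptide loading genes was called by limma (9 had an unadjusted p under 0.05), although 21 had a log2 change below 0 and the median was -0.37; 10 of them had non-overlapping groups with ionomycin lower (9.57% of all genes tested). H2-K1 was at 6729, 7786 and 7151 TPM with vehicle and 5283, 5921 and 5594 TPM with ionomycin, and B2m at 6160, 4985 and 3119 TPM and 4400, 3271 and 3390 TPM. Of 29 NF-kappaB genes, 2 were called higher and 3 lower (17.2%, against 2.91% of all genes tested). The feedback inhibitor Tnfaip3 (A20) rose from 302, 480 and 637 TPM to 1230, 1348 and 1430 TPM, and N4bp1 from 23.6, 44.5 and 51.3 TPM to 102, 128 and 122 TPM. Bcl3, Nfkbiz and Birc3 fell, Nfkbiz, for instance, from 55.7, 52.8 and 102 TPM to 20.4, 22.6 and 20.2 TPM. Nfkbia was at 423, 415 and 144 TPM and 132, 119 and 85.2 TPM and was not called (limma adjusted p = 0.132). None of 23 BCL-2 family and death genes was called by limma (6 had an unadjusted p under 0.05); Mcl1 was at 246 to 424 TPM and 207 to 286 TPM, and Bcl2l11 (BIM) at 171 to 342 TPM and 210 to 274 TPM. Of the 12 calls on the NF-kappaB, interferon, MHC and BCL-2 lists, 6, 0 and 4 remained without vehicle replicates 1, 2 and 3, and 0 without any 1 ionomycin replicate.

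**Figure D5:**
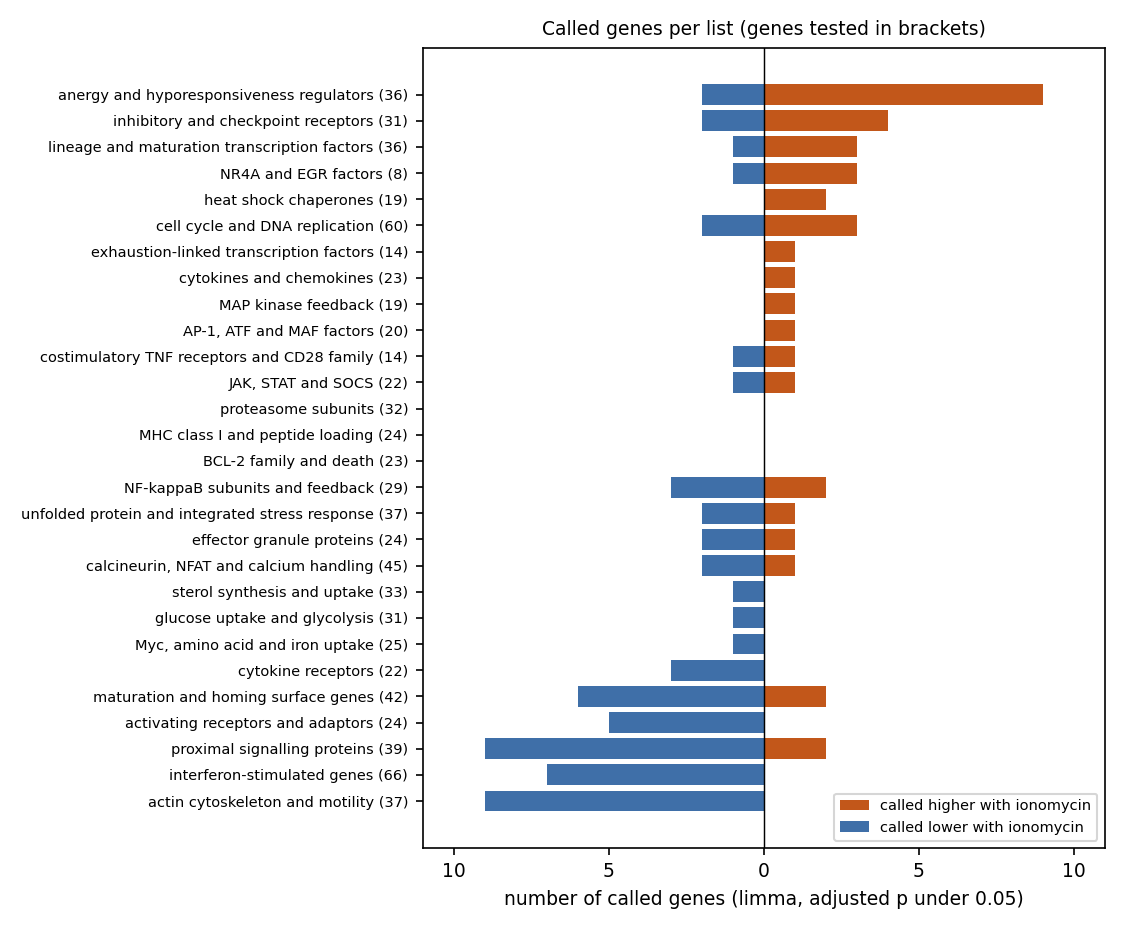
Number of genes called higher (orange, to the right) and lower (blue, to the left) with ionomycin in each of 28 gene lists, with the number tested in brackets. The anergy list holds 9 calls to the right, and the actin and proximal signalling lists 9 each to the left, against 1.66% and 1.25% of all genes tested; some genes are on more than 1 list.

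Of 237 growth, metabolic and stress genes 13 were called, spread over several lists, where 2.91% of all genes tested were called. Of 31 glycolysis genes only Egln3, an oxygen-sensing prolyl hydroxylase, was called, at 149, 170 and 74.4 TPM with vehicle and 37.5, 32.2 and 35.7 TPM with ionomycin, and Gapdh, Aldoa and Eno1 were not. Of 25 Myc and nutrient uptake genes only Mxd1, an antagonist of Myc, was called, at 602, 567 and 238 TPM and 77.2, 25.7 and 25.4 TPM. Of 33 sterol genes only Insig2, which holds back sterol synthesis, was called, at 53.2 to 63.4 TPM and 13.0 to 27.3 TPM. Each of these 3 fell. None of 32 proteasome genes was called by limma (2 had an unadjusted p under 0.05), although 29 of them had a log2 change below 0. Among 37 genes of the unfolded protein and integrated stress responses, Ppp1r15a (GADD34), which ends the translation block of the stress response, rose from 97.0, 103 and 102 TPM to 289, 383 and 320 TPM, a log2 change of 1.69 ± 0.20 (limma adjusted p = 0.00517). The stress sensor gene Ern1 fell from 203, 138 and 133 TPM to 49.6, 35.8 and 53.2 TPM and Ddit4 from 89.5, 81.1 and 48.1 TPM to 16.5, 22.3 and 22.1 TPM. Hspa5, Hsp90b1 and Atf4 were not called.

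Of 19 heat shock genes, 2 were called (10.5%, against 2.91% of all genes tested), both higher and of the HSP110 family. Hsph1 rose from 53.4, 67.4 and 25.2 TPM to 341, 269 and 297 TPM. Hspa4l rose from 12.1, 36.4 and 25.2 TPM to 154, 155 and 144 TPM. The abundant chaperones Hspa8, Hsp90ab1 and Hsp90aa1 were not called. Of 60 cell cycle and replication genes, 3 were called higher and 2 lower (8.33%), with a median of 0.02. Beside Kif15, the replication helicase gene Mcm6 rose from 66.3, 89.4 and 96.8 TPM to 302, 347 and 300 TPM and the centromeric histone gene Cenpa from 136, 162 and 195 TPM to 746, 561 and 503 TPM. The D-type cyclin gene Ccnd3 fell from 531, 559 and 228 TPM to 141, 86.0 and 107 TPM, and the cyclin-dependent kinase inhibitor gene Cdkn2d from 94.4, 89.0 and 89.7 TPM to 27.4, 33.4 and 22.8 TPM. Pcna, a general proliferation gene, was at 366, 276 and 130 TPM and 182, 210 and 121 TPM and was not called, nor were Ccnd2 and Cdkn1b. The rise of Kif15 thus stood beside no common change of the list. Of the 13 calls on these growth and stress lists, 7, 1 and 11 remained without vehicle replicates 1, 2 and 3, and 0 without any 1 ionomycin replicate.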

How the data were processed

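The authors deposited TPM per gene, rounded to 2 decimals, for 56923 genes, of which 23840 have no symbol; per the submitters' processing notes STAR, RSEM and GRCm39 were used, with versions and annotation not given in the sources used here. Per the labels' protocols, RNA with an integrity number above a minimum was made into libraries with an mRNA kit. TPM keep no record of depth, so depth is unknown; genes above 0 ran from 13904 to 14578 with vehicle and 15157 to 15483 with ionomycin. Precision rests on 3 replicates a group.

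The 14372 genes averaging 1 TPM or more across the 6 libraries were transformed as log2(TPM + 1), which understates changes at low levels, and tested two-sided with limma 3.58.1 in R 4.3.3 (trended variance, prior df 4.63, Benjamini-Hochberg over all genes tested). The steps were tested on simulated data. An exact permutation test of 3 against 3 cannot go below 0.1. Tables were drawn up with Python 3.11.15 and pandas 2.3.3, and figures with matplotlib 3.10.9. The other 3 deposited tables, scaled separately, were not used.

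The comparison, the 28 gene lists and the 11 marker lists were chosen with earlier results of these data known. Named genes were the 10 largest rises and falls among called, non-overlapping genes with a full symbol, the 10 called genes with the largest difference in mean TPM, all called list members, the 3 most abundant uncalled members of each list, all NR4A and EGR genes and the cell type markers. Tox, Pdcd1, Havcr2, Nfatc1, Il2ra, Tcf7, Batf and Fos, and entries named to complete a count, were chosen after their values were seen. Some genes that these rules name are not reported here. The lists hold 865 distinct symbols. Of these, 809 table entries were tested, since a few symbols have more than 1 entry, and 93 were called (11.5%). Alternatives were 11 other settings and 6 fits that leave out 1 library. Replicate numbers were checked for pairing by correlating deviations from the group means. Same-numbered samples gave 0.1014, 0.017 and 0.0676, and other pairs -0.0914 to 0.0277. Each vehicle replicate correlated best with the ionomycin replicate of its own number. The values were small, but neutrophil markers were highest in replicate 3 of both groups. Whether the numbers pair the samples is not known. The main fit took them as unpaired.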

Additional observations from a re-analysis of the deposited data

How the results depend on the processing

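All 418 called genes kept their direction in every alternative in which they were tested (408 of them with a mean of at least 5 TPM, 394 among genes with a symbol only). Where the values were not rescaled this was fixed in advance, since no called gene had overlapping groups. Against 418 calls (238 higher, 180 lower), testing without a filter on low values gave 185 (113 and 72) among 20407 genes, and moderating variances without a trend gave 172 (127 and 45), which also moved the share of calls that were higher from 56.9% to 73.8%; the causes were not tested. Leaving out 1 library gave 3 to 342 calls, 2 to 198 higher and 1 to 144 lower, with fewer samples in the smaller group. Pseudocounts of 0.1 and 5 gave 377 and 420 calls, quantile normalization 459, median-of-ratios rescaling 434, a robust trend 456, and the stricter filters 484 and 478. A fit with the replicate number as a block gave 477 calls (270 higher, 207 lower), 362 of them shared. Same-numbered samples had correlations of 0.1014, 0.017 and 0.0676, against -0.0914 to 0.0277 for other pairs. Each vehicle replicate correlated best with its own number, while ionomycin replicate 2 correlated best with vehicle replicate 3 (0.0277). Whether the numbers pair the samples is therefore not settled. Of 90 uncalled genes that the naming rules gave, 33 changed direction in at least 1 of the 6 fits that leave out 1 library. Such a change is possible only where the groups overlap. With 1 library left out, the log2 change of Ifng ran from -2.92 to 1.26, of Prf1 from -0.86 to 0.11 and of Nkg7 from -0.08 to 0.68, against -0.71, -0.29 and 0.35 with all libraries. The extremes above 0 for Ifng and Prf1 were without vehicle replicate 1, and that below 0 for Nkg7 without vehicle replicate 3. Depth is unknown, so genes listed at 0 have no limit of detection.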

Other observations

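Ribosomal protein genes, a list drawn up after the values were seen, were higher with ionomycin. Of 87 tested, 23 were called higher and 0 lower (26.4%, against 2.91% of all genes tested). A log2 change above 0 was seen in 82 of these genes, and the median was 0.76. Many have processed pseudogenes that can share their reads. Their summed share of all TPM was 10.1%, 8.2% and 10.1% with vehicle and 16.5%, 14.9% and 16.5% with ionomycin. Rpl12, for instance, was at 1150, 691 and 873 TPM with vehicle and 2233, 2042 and 1897 TPM with ionomycin. The median stayed between 0.59 and 0.83 in all 17 alternatives, while the number of calls ran from 0 (without a filter, without a variance trend, and without vehicle replicate 2 or any 1 ionomycin replicate) to 39 with the replicate number as a block. TPM sum to the same total in every library, so these shares are relative.

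Further families, also picked after the values were seen, were uneven within themselves. Rgs1 and Rgs16, which limit G protein signalling, were called higher, with Rgs16 at a mean of 99.5 TPM with ionomycin and 13.6 TPM with vehicle, whereas Rgs3 was called lower, at 59.9 and 163 TPM. Of 8 tested GIMAP genes, GTPases of lymphocyte survival, only Gimap4 was called by limma, at 1635, 1824 and 1462 TPM with vehicle and 658, 705 and 649 TPM with ionomycin (log2 change -1.28 ± 0.17, limma adjusted p = 0.00915); its neighbours Gimap3 and Gimap6 had log2 changes of 0.33 and 0.42. Kif13b, at means of 126 and 35.2 TPM, was the only other kinesin gene called higher beside Kif15.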
